A study of Mus musculus with 9 samples.

Results

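Expression of 34 genes of the tricarboxylic acid (TCA) cycle, the pyruvate dehydrogenase complex and the mitochondrial shuttles was followed in mouse cardiomyocytes, the contractile cells of heart muscle. The genes were chosen by symbol from the pathway, by a rule that uses no measured value but was made with earlier results of these data known. The symbols were matched to Ensembl identifiers through the GENCODE M21 annotation of the mm10 build. All 34 were found among the 55487 gene identifiers of the count table, on 16 chromosomes, and all 34 passed the filter on low counts that left 15633 genes for testing.

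The study compared 3 groups of 3 RNA-seq libraries. The Firre group had received an adeno-associated virus of serotype AAV9 for overexpression of Firre, a nuclear long non-coding RNA. The negative control group, abbreviated VC, had received an AAV9 control vector, and the blank control group, abbreviated NC, is labelled only as blank. The question named in the series title is whether Firre promotes myocardial proliferation and repair through PTBP1 and the Akt pathway. The sources used here do not give the promoter, insert or dose of the vectors, the time after delivery, or the strain, age and sex of the mice.

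The TCA cycle oxidises acetyl-CoA in the mitochondrial matrix and passes electrons to the respiratory chain through NADH and succinate dehydrogenase. Pyruvate enters mitochondria through the mitochondrial pyruvate carrier and becomes acetyl-CoA in the pyruvate dehydrogenase complex, which kinases switch off and phosphatases switch on. The malate-aspartate shuttle moves reducing equivalents from cytosolic NADH into the matrix, and the heart relies heavily on this oxidative route for the energy of contraction.

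Library totals ran from 15591542 to 22697016 gene counts, with 21222 to 21878 genes detected per library. Levels are given as CPM, counts scaled to a common library size after edgeR's TMM normalization. As a check of the labels, Firre RNA stood at 62.6 to 69.7 CPM with the Firre vector, 32.5 to 34.4 CPM with the control vector and 30.2 to 37.2 CPM in blank libraries, so it was higher where it was labelled as overexpressed. The cardiomyocyte label matched the marker genes, with the cardiac myosin heavy chain Myh6 at 14428 to 16441 CPM in the 6 control libraries, but markers of other heart cells were also present. The summed level of 10 fibroblast markers was 10016 CPM in the negative control, against 37105 CPM for 12 cardiomyocyte markers.

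Most of the pathway was higher in the Firre group. Against the negative control, 31 of 34 genes rose, 1 fell (Idh1) and 2 did not pass the test (Aco1 and Pcx), by edgeR's quasi-likelihood test at an adjusted p under 0.05. Of all 15633 genes tested, 27.5% were called higher and 28.4% lower in that comparison, while 91.2% of the set was called higher. The median log2 fold change of the 34 genes was 0.62, with a range from -0.44 to 1.01, against a median of 0.000241 over all genes tested. The 3 Firre values lay above all 3 negative control values for 31 of the 34 genes, and for 30.8% of all genes tested. In these bulk libraries, fewer cells of a type and less RNA per cell cannot be told apart.

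Cell-type markers moved in the same libraries, and their part in the changes of the 34 genes was not tested. The share of counts from mitochondrially encoded genes was 7.07% to 8.07% in the Firre libraries and 5.89% to 6.80% in the 6 control libraries, without overlap, and 31 of the 34 genes rose and 1 fell against the negative control also with those genes left out of the fit. The 12 cardiomyocyte markers summed to 37105 CPM in the negative control and 58623 CPM in the Firre group, and 12 of 12 rose with a median log2 fold change of 0.69. All 10 fibroblast markers fell (summed level 10016 to 4895 CPM), as did 10 of 10 endothelial markers (1483 to 641 CPM), 8 of 8 smooth muscle and pericyte markers (3074 to 1496 CPM), 6 of 6 epicardial markers (339 to 64.5 CPM) and 10 of 10 macrophage markers (74.2 to 12.4 CPM). The macrophage gene C1qa was at 0 in all 3 Firre libraries.

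The libraries within the Firre group behaved alike. Relative to the negative control mean, the median log2 difference of the 34 genes was 0.64, 0.64 and 0.61 in the 3 Firre libraries, and 33 of 34 genes were above that mean in each. Against the blank control, which shares the Firre libraries with the first comparison, 31 genes rose, 1 fell and 2 did not pass the test, where 27.3% of all genes were called higher and 28.9% lower. The calls were the same gene by gene in both comparisons. Between the negative and blank controls none of the 34 genes was called. The edgeR count was 0, with 0 at an unadjusted p under 0.05, and DESeq2 and limma-voom also called 0. Their log2 differences ran from -0.07 to 0.09, and only 0.0576% of all genes were called in either direction.

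**Figure D1:**
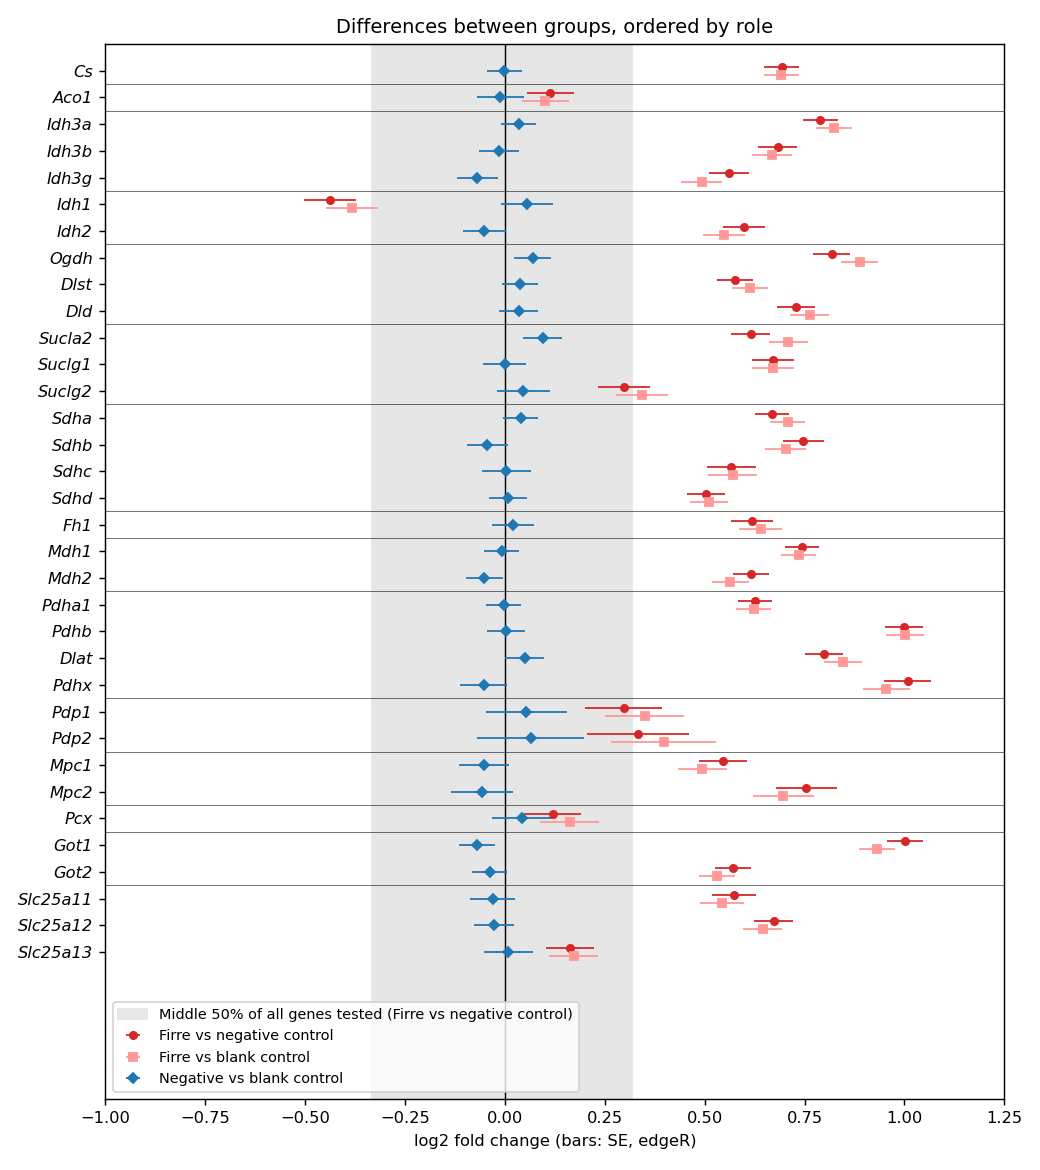
Log2 fold change of each of the 34 genes, ordered by role, for Firre against each control and for the negative against the blank control. Bars are standard errors derived from edgeR's F statistic. The grey band holds the middle 50% of all genes tested for Firre against the negative control. For Firre, only Idh1 lies below 0 in both comparisons, and Pdhx, Got1 and Pdhb lie near 1.

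Set against the cardiomyocyte markers, the summed level of the 34 genes did not separate the groups. With n = 3 and the SD as error, their sum was 10028 ± 152 CPM with Firre, 6273 ± 61.9 CPM with the control vector and 6275 ± 137 CPM in blank libraries. As a percentage of the summed cardiomyocyte markers it was 17.1 ± 0.300, 16.9 ± 0.507 and 16.6 ± 0.205 in the same order, and the ranges of the 3 groups overlapped. Divided by 20 fatty acid oxidation genes, the sum went from 299% with the control vector to 249% with Firre, and divided by 16 glycolysis genes it went from 94.7% to 128%. The glycolysis list lacks Aldoa, and in the negative control Gapdh held only 58.9 CPM, against 602 CPM for Pgk1.

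**Figure D2:**
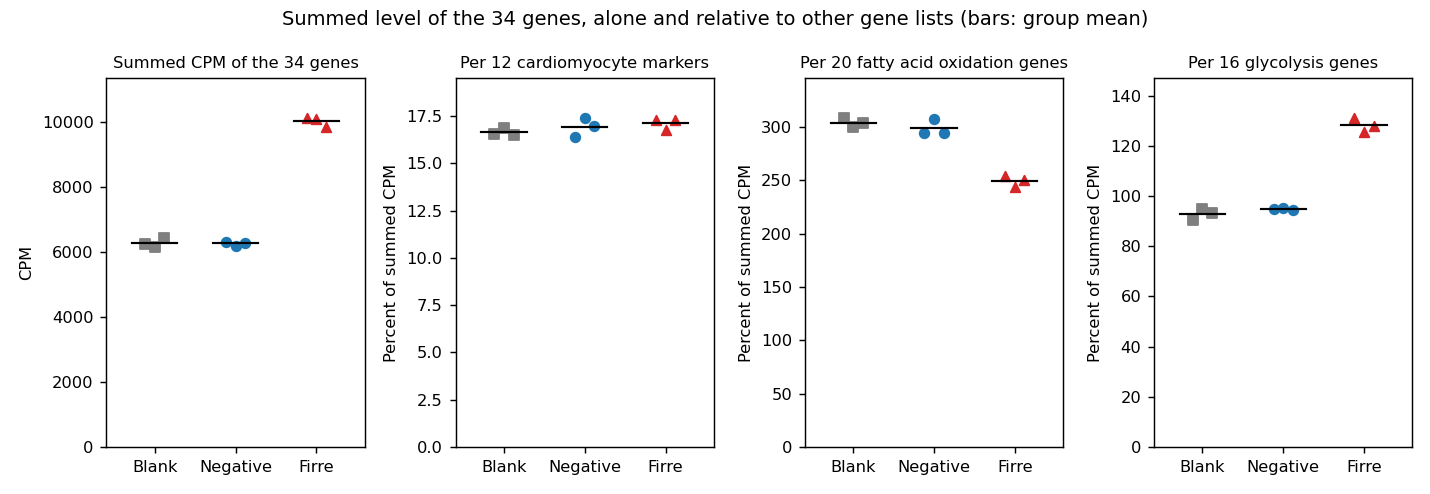
Summed CPM of the 34 genes in each library, and the same sum as a percentage of the summed CPM of 12 cardiomyocyte markers, 20 fatty acid oxidation genes and 16 glycolysis genes, with bars at the group means. The Firre libraries lie apart in the plain sum, at 9855 to 10138 CPM, but overlap both control groups when divided by the cardiomyocyte markers.

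Gene by gene, the ratio to the summed cardiomyocyte markers differed within the set. Myh6 alone held 15315 of the 37105 CPM of that sum in the negative control. The sum was 58623 CPM in the Firre group, so a gene with unchanged CPM has a lower ratio there. The 12 markers rose by 0.22 to 1.15 on the log2 scale, and other choices of markers were not tested. For 7 of the 34 genes (Idh3a, Ogdh, Sdhb, Pdhb, Dlat, Pdhx and Got1) all Firre libraries lay above all negative control libraries, where this holds for 5.02% of all genes tested. For 11 (Aco1, Idh3g, Idh1, Dlst, Suclg2, Sdhd, Pdp1, Mpc1, Pcx, Got2 and Slc25a13) they all lay below, where this holds for 75.7% of all genes. The other 16 overlapped. The members above gained up to 0.35 in log2 of that ratio (Pdhx), and Idh1 had the lowest value, -1.09. Some differences were small, such as 0.09 for Sdhb and -0.09 for Got2.

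Citrate synthase, Cs, which condenses acetyl-CoA with oxaloacetate to open the cycle, was at 1083, 1022 and 1002 CPM with Firre, 651, 622 and 650 CPM with the control vector and 648, 630 and 646 CPM in blank libraries. It rose by 0.69 on the log2 scale against the negative control (SE 0.04, edgeR adjusted p = 1.95e-14) and by 0.69 against the blank control. The Firre values lay above all control values. Cytosolic aconitase, Aco1, which doubles as an iron-sensing RNA-binding protein, was at 61.5, 66.5 and 62.4 CPM with Firre, 56.7, 59.7 and 59.6 CPM with the control vector and 61.8, 59.3 and 56.5 CPM in blank libraries. The difference of 0.11 on the log2 scale from the negative control did not pass the test (SE 0.06, edgeR adjusted p = 0.102), and against the blank control the groups overlapped.

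Of the 5 isocitrate dehydrogenase genes, 4 rose and 1 fell. The NAD-dependent enzyme of the matrix, which makes 2-oxoglutarate and NADH, has catalytic (Idh3a) and other subunits (Idh3b, Idh3g), and all 3 genes rose, by 0.79, 0.68 and 0.56 on the log2 scale. Idh3a was at 443, 434 and 435 CPM with Firre, 256, 248 and 256 CPM with the control vector and 246, 242 and 254 CPM in blank libraries. It rose by 0.79 on the log2 scale against the negative control (SE 0.04, edgeR adjusted p = 1.06e-15) and by 0.82 against the blank control.

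The NADP-dependent isocitrate dehydrogenases of the mitochondrial matrix (Idh2) and of the cytosol and peroxisome (Idh1), which both make NADPH, went in opposite directions. The windows from 250 bases before to 50 bases after their RefSeq starts on GRCm38.p6 are shown here. They were chosen because Idh1 was the only gene of the set called lower, while its paralog Idh2 was called higher. For Idh1, the first of 2 listed starts is given. Neither window held the searched ERR or NRF1 motifs named further on, so no base is in capitals. The Idh1 window is chr1:65186430-65186729 on the minus strand and the Idh2 window is chr7:80115301-80115600 on the minus strand.
Idh1: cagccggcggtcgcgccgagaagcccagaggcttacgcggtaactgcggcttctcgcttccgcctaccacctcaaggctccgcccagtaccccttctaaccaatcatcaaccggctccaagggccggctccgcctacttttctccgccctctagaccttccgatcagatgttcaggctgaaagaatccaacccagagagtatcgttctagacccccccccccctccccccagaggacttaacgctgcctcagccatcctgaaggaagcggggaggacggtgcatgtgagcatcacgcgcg
Idh2: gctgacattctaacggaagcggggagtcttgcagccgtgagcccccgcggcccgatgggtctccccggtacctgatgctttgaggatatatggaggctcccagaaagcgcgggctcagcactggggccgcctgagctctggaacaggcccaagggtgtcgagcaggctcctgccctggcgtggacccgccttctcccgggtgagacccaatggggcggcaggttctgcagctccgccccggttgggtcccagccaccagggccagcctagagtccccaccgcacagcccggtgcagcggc

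The Idh1 gene (ENSMUSG00000025950, chr1:65158616-65186500 on the minus strand) was at 50.8, 49.8 and 48.6 CPM with Firre, 62.8, 74.7 and 64.4 CPM with the control vector and 65.2, 67.6 and 61.5 CPM in blank libraries. It fell by 0.44 on the log2 scale against the negative control (SE 0.06, edgeR adjusted p = 1.04e-06) and fell by 0.38 against the blank control. All 3 Firre values lay below all 6 control values. The Idh2 gene (ENSMUSG00000030541, chr7:80094846-80115392 on the minus strand) was at 134, 140 and 139 CPM with Firre, 94.4, 86.2 and 91.9 CPM with the control vector and 90.5, 93.8 and 98.0 CPM in blank libraries. It rose by 0.60 on the log2 scale against the negative control (SE 0.05, edgeR adjusted p = 3.75e-11) and by 0.55 against the blank control. All 3 Firre values lay above all 6 control values. The ratio of Idh2 to Idh1 was 2.61, 2.80 and 2.84 with Firre and 1.499, 1.15 and 1.42 with the control vector.

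The 2-oxoglutarate dehydrogenase complex, which makes succinyl-CoA and NADH, rose in all 3 subunits. Ogdh, its thiamine-dependent first enzyme, was at 807, 813 and 759 CPM with Firre, 475, 434 and 440 CPM with the control vector and 430, 418 and 437 CPM in blank libraries. It rose by 0.82 on the log2 scale against the negative control (SE 0.05, edgeR adjusted p = 1.31e-15) and by 0.89 against the blank control. Dlst, the transferase core, and Dld, the dehydrogenase shared with the pyruvate complex, rose by 0.58 and 0.73 on the log2 scale, from 253 to 376 CPM and from 151 to 250 CPM on average.

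Succinate-CoA ligase pairs a common alpha subunit, Suclg1, with an ADP-forming (Sucla2) or a GDP-forming (Suclg2) beta subunit. Suclg1 rose from 116 to 184 CPM (log2 fold change 0.67) and Sucla2 from 148 to 227 CPM (0.62). Suclg2 was at 53.8, 51.2 and 56.0 CPM with Firre, 43.4, 44.4 and 43.2 CPM with the control vector and 45.1, 38.4 and 43.7 CPM in blank libraries. It rose by 0.30 on the log2 scale against the negative control (SE 0.07, edgeR adjusted p = 2.63e-04) and by 0.34 against the blank control. The Firre values of all 3 genes lay above all control values.

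Succinate dehydrogenase, respiratory complex II, has a flavoprotein (Sdha), an iron-sulfur protein (Sdhb) and 2 membrane anchors (Sdhc, Sdhd). The promoter windows of Sdhb and Sdhd are shown because they were the members of this complex with a match to the searched NRF1 or ERR motifs, in capitals. Sdhc had no promoter entry and was not searched. The NRF1 core lies 54 bases before the RefSeq start of Sdhb, in chr4:140961021-140961320 on the plus strand, and the ERR motif lies 36 bases after that of Sdhd on the reverse strand, so its complement is printed, in chr9:50603800-50604099 on the minus strand, both on GRCm38.p6.
Sdhb: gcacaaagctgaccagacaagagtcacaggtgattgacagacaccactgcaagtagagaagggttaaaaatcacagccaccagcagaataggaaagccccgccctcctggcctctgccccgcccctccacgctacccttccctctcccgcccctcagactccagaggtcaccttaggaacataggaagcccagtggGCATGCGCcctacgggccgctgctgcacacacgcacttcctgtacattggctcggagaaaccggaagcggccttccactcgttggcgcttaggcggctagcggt
Sdhd: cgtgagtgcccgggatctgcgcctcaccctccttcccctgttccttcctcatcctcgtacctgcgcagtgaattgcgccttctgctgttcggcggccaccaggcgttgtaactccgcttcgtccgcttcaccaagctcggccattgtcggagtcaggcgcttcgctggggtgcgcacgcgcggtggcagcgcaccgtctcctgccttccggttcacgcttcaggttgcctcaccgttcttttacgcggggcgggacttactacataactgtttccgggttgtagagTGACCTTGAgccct

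All 4 subunit genes rose. Sdha went from 369 to 586 CPM (log2 fold change 0.67), Sdhb from 133 to 223 CPM (0.75), Sdhc from 126 to 187 CPM (0.57) and Sdhd from 142 to 201 CPM (0.50). Sdhb was at 220, 236 and 214 CPM with Firre, 138, 129 and 133 CPM with the control vector and 134, 134 and 144 CPM in blank libraries, and the groups did not overlap. Per exon length the order of the 4 in the negative control was Sdhd at 115, Sdha at 89.4, Sdhb at 59.5 and Sdhc at 38.9 RPKM, which is CPM per kilobase of exon. The subunit with the highest level, Sdhd, had the smallest change, and the one with the lowest level, Sdhc, had the next smallest.

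Fumarase, Fh1, which hydrates fumarate to malate, rose from 97.9 to 150 CPM (log2 fold change 0.62). The malate dehydrogenases of the cytosol (Mdh1) and matrix (Mdh2) act in the shuttle and the cycle, and they were the members with the highest level per length in every group. Mdh1 was at 858, 838 and 840 CPM with Firre, 502, 500 and 513 CPM with the control vector and 491, 504 and 528 CPM in blank libraries. It rose by 0.74 on the log2 scale against the negative control (SE 0.04, edgeR adjusted p = 2.53e-15) and by 0.74 against the blank control. Mdh2 rose by 0.62, from 451 to 691 CPM.

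The pyruvate dehydrogenase complex had the highest median log2 fold change of the role groups, 0.90 over its 4 genes. Pdha1 and Pdhb encode the alpha and beta subunits of the first enzyme, Dlat the acetyltransferase core, and Pdhx the protein that anchors the dehydrogenase Dld to that core. Pdhx (ENSMUSG00000010914, chr2:103021075-103073513 on the minus strand) was at 118, 127 and 113 CPM with Firre, 57.8, 58.5 and 61.8 CPM with the control vector and 58.7, 62.0 and 64.0 CPM in blank libraries. It rose by 1.01 on the log2 scale against the negative control (SE 0.06, edgeR adjusted p = 2.05e-15) and by 0.95 against the blank control. Pdhb (ENSMUSG00000021748, chr14:8165996-8173025 on the minus strand) was at 340, 361 and 350 CPM with Firre, 177, 177 and 172 CPM with the control vector and 181, 164 and 180 CPM in blank libraries. It rose by 0.999 on the log2 scale against the negative control (SE 0.05, edgeR adjusted p = 3.45e-17) and by 1.002 against the blank control. In both genes the lowest Firre value lay above the highest control value.

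Dlat rose from 143 to 249 CPM (log2 fold change 0.80) and Pdha1 from 408 to 630 CPM (0.63). The phosphatases that reactivate the complex changed less and were the members with the lowest level per length. Pdp1 was at 15.8, 14.5 and 17.6 CPM with Firre, 13.1, 12.8 and 13.0 CPM with the control vector and 12.1, 13.0 and 12.3 CPM in blank libraries, and its log2 change against the negative control was 0.30 (SE 0.10, edgeR adjusted p = 0.0104). Pdp2 was at 11.4, 13.3 and 11.2 CPM with Firre, 8.07, 11.5 and 8.88 CPM with the control vector and 10.2, 9.31 and 7.77 CPM in blank libraries, with a log2 change of 0.33 (SE 0.13, edgeR adjusted p = 0.0283), and its Firre and negative control values overlapped. The call for Pdp1 was lost without the third Firre library, and that for Pdp2 without negative control library 1 or 3 or the second Firre library, or with library totals alone (edgeR adjusted p from 0.0692 to 0.177 over these).

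The mitochondrial pyruvate carrier is a pair of subunits, Mpc1 and Mpc2, and both rose. Mpc1 went from 48.6 to 70.9 CPM (log2 fold change 0.55) and Mpc2 from 67.9 to 115 CPM (0.75), with no overlap between groups. Pyruvate carboxylase, Pcx, which makes oxaloacetate from pyruvate, was at 37.6, 36.6 and 36.8 CPM with Firre, 33.8, 37.2 and 31.1 CPM with the control vector and 33.5, 31.0 and 34.8 CPM in blank libraries. The log2 fold change of 0.12 against the negative control did not pass the test (SE 0.07, edgeR adjusted p = 0.166), and neither did that of 0.16 against the blank control (edgeR adjusted p = 0.0613). It passed against the negative control without the second library of that group (0.19, edgeR adjusted p = 0.0456), and against the blank control without the third library of that group (0.20, edgeR adjusted p = 0.0377).

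The malate-aspartate shuttle rose unevenly. Got1, the cytosolic aspartate aminotransferase (ENSMUSG00000025190, chr19:43499752-43524605 on the minus strand), was at 455, 458 and 452 CPM with Firre, 228, 222 and 232 CPM with the control vector and 239, 227 and 249 CPM in blank libraries. It rose by 1.002 on the log2 scale against the negative control (SE 0.05, edgeR adjusted p = 1.02e-17) and by 0.93 against the blank control. Got2, the matrix enzyme, rose less, from 431 to 639 CPM (log2 fold change 0.57). The 2-oxoglutarate-malate carrier Slc25a11 rose from 78.5 to 117 CPM (0.57) and the aspartate-glutamate carrier Slc25a12, the main isoform in heart, from 111 to 176 CPM (0.67).

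The second aspartate-glutamate carrier, Slc25a13, known as the liver form, was at 59.6, 55.6 and 57.9 CPM with Firre, 53.0, 51.3 and 50.2 CPM with the control vector and 51.2, 54.1 and 48.2 CPM in blank libraries. Its log2 fold change of 0.16 against the negative control passed the test (SE 0.06, edgeR adjusted p = 0.0224), and the groups did not overlap, but the call was lost with library totals alone or without any of negative control libraries 2 and 3 and Firre libraries 1 and 3 (edgeR adjusted p from 0.0544 to 0.131). It was the smallest rise among the genes called.

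**Figure D3:**
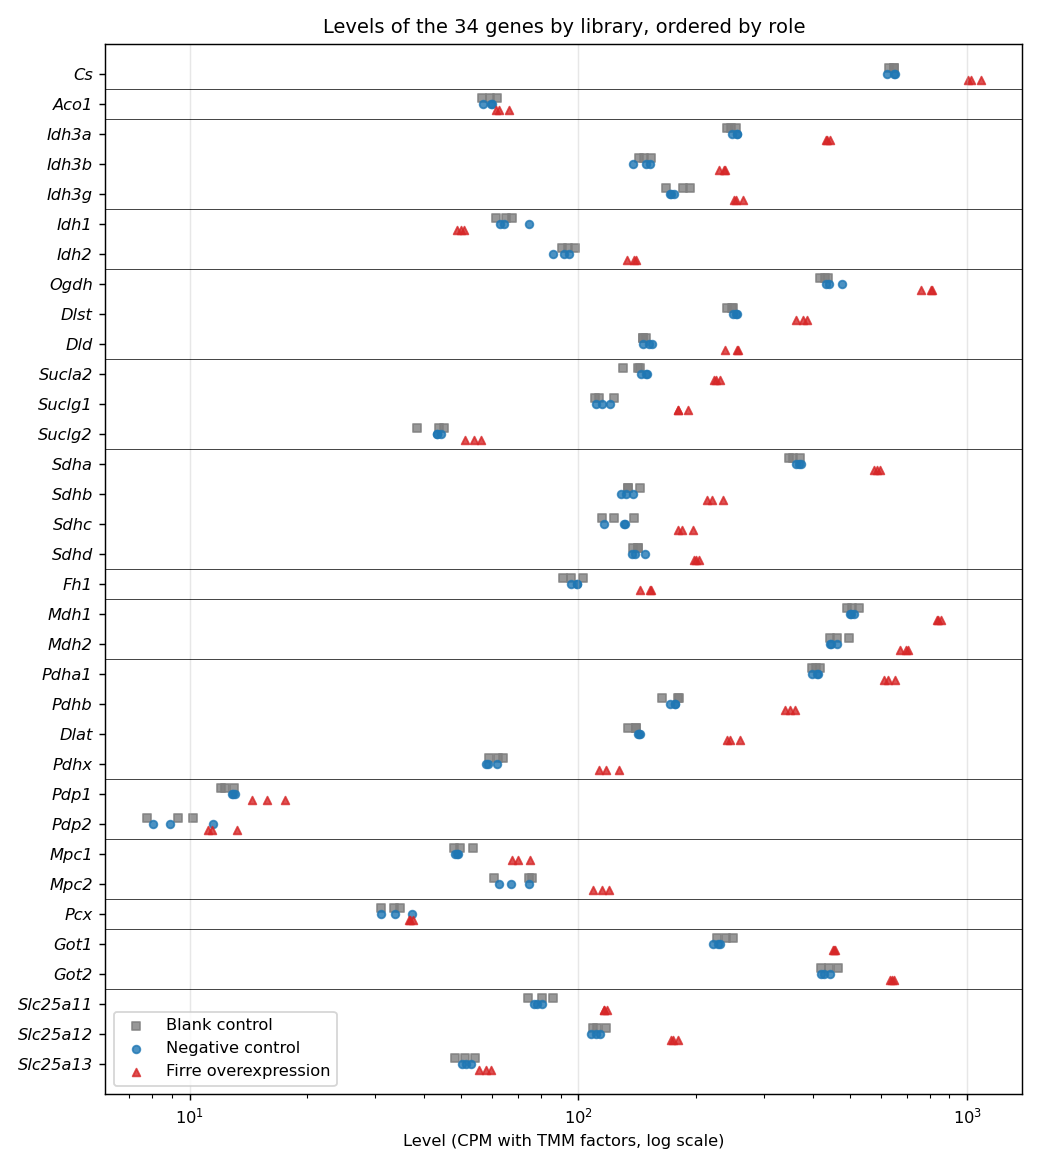
CPM of each of the 34 genes in the 9 libraries on a log axis, ordered by role. The Firre libraries sit to the right of both controls for most genes, to the left for Idh1, and overlap a control group for Aco1, Pcx and Pdp2.

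Ratios between partner genes within a library barely depend on its scaling, and 8 were compared. The ratio Idh2/Idh1 was 1.03 higher on the log2 scale in the Firre group than in the negative control, and Sucla2/Suclg2 was 0.32 higher. Lower in the Firre group were Slc25a13/Slc25a12 by -0.51, Pcx/Pdha1 by -0.50, Got2/Got1 by -0.43 and Mdh2/Mdh1 by -0.13. For these 6 the groups did not overlap, and each had p = 0.1, the smallest that an exact two-sided permutation test of 3 against 3 allows (Benjamini-Hochberg adjusted p = 0.133).

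Against all 6 control libraries together, the same 6 ratios differed with an exact two-sided permutation p = 0.0238, again the smallest possible, and an adjusted p = 0.0317. Mpc2/Mpc1 was 0.21 higher in the Firre group (exact permutation p = 0.2 against the negative control and 0.0714 against all 6 controls), and Pdp1/Pdp2 differed by -0.04 (exact permutation p = 0.7 and 0.667). Copies of Mpc1, described below, bear on the first of these.

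**Figure D4:**
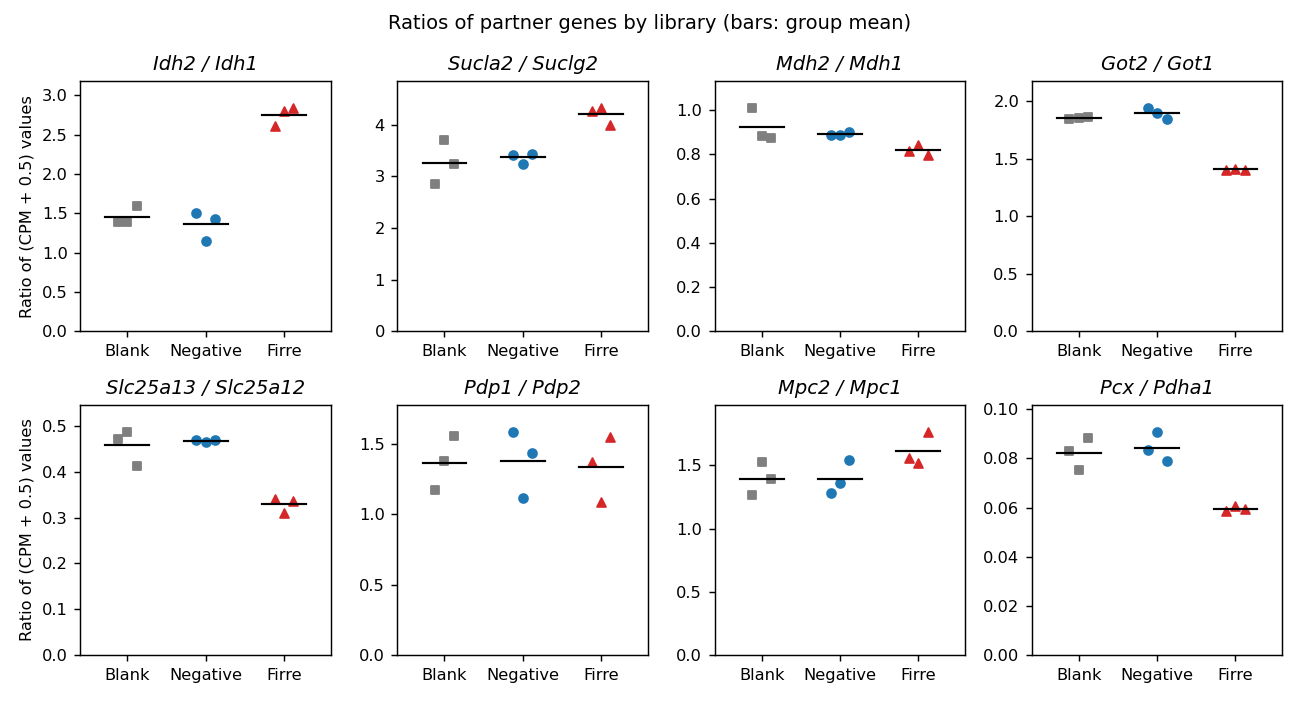
Ratio of (CPM + 0.5) values of 8 gene pairs in each library, with bars at the group means. Idh2/Idh1 stands at 2.61 to 2.84 in the Firre libraries against 1.15 to 1.499 in the negative control, while the Pdp1/Pdp2 values of the groups overlap.

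Levels per length spanned a wide range. In the negative control, levels ran from 197 RPKM for Mdh1, 127 for Mdh2, 115 for Sdhd, 111 for Cs and 109 for Pdha1 down to 7.16 for Pcx, 2.88 for Pdp1 and 1.66 for Pdp2. Across the 34 genes the log2 change against log2 RPKM had a Pearson r of 0.44 and a Spearman rho of 0.42, as a description over genes of the same libraries. Sdhd, Cs and Pdha1 are neighbours in that order whose levels lay within about their spread (SD 4.60, 2.83 and 2.05 RPKM), and in the Firre group Cs and Got1 both stood at 179 RPKM.

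Genes around the pathway were read from lists of their own. For comparison with each count below, 27.5% of all 15633 genes tested were called higher against the negative control and 28.4% lower. Of 10 genes that regulate or equip pyruvate dehydrogenase, 8 rose and 0 fell, with a median log2 fold change of 0.57. Pdk4, a kinase that switches the complex off, was at 82.2, 105 and 90.2 CPM with Firre and 25.1, 22.0 and 25.2 CPM with the control vector, a log2 change of 1.94 (SE 0.08, edgeR adjusted p = 5.31e-17). The kinase Pdk2 rose from 88.3 to 172 CPM (0.96) and Pdk3 from 32.5 to 41.1 CPM (0.34), while Pdk1 had a log2 fold change of -0.11 that did not pass the test (edgeR adjusted p = 0.152). The mitochondrial deacetylase Sirt3 rose by 0.99.

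Among 9 other cycle enzymes and assembly factors, 5 rose and 0 fell. Cisd1, an iron-sulfur protein of the outer membrane, rose by 0.68, and the complex II assembly factor Sdhaf2 rose by 0.26.

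Genes that fill or drain the cycle went both ways, with 4 of 11 tested higher and 6 lower. The share called higher was 36.4%, against 27.5% of all genes tested. The malic enzymes Me3 and Me1 rose by 0.63 and 0.52, the glutamate carrier Slc25a22 rose by 0.78, and the citrate carrier Slc25a1 fell by 0.48 on the log2 scale, from 51.8 to 37.1 CPM. Of 6 genes of the glycerol phosphate shuttle and lactate dehydrogenase, 3 rose and 2 fell. Ldhb, the heart-type lactate dehydrogenase subunit, rose from 257 to 495 CPM (0.95), Gpd1 rose by 0.60, Ldhd by 0.53, and Gpd2, the mitochondrial enzyme of the glycerol phosphate shuttle, fell by 0.35. Ldha, at a higher level, fell from 1268 to 1166 CPM (log2 fold change -0.12).

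Of 13 transcriptional regulators of oxidative metabolism, 7 rose, 2 fell and 4 were not called. Gabpb1 and Myc fell (log2 fold change -0.33 and -0.32), and Nrf1 and Gabpa were among those not called (-0.02 and -0.09). The coactivator Ppargc1a was at 91.1, 80.2 and 83.2 CPM with Firre and 31.5, 34.5 and 31.4 CPM with the control vector, a log2 change of 1.38 (SE 0.07, edgeR adjusted p = 1.67e-16). The muscle regulator Perm1, the related coactivator Ppargc1b and the nuclear receptor Esrra rose by 1.36, 0.82 and 0.77. In neighbouring pathways, 20 of 20 fatty acid oxidation genes rose, with a median of 0.98. Acaa2 rose by 1.28, Acadl by 1.08, Acsl1 by 1.06 and Hadha by 1.03. Cpt1b rested on 17 counts in the negative control and 50 with Firre. Against the blank control 19 of the 20 rose, without Cpt1b (edgeR adjusted p = 0.170). Of 16 glycolysis genes, 11 rose and 1 fell, with a median of 0.43. Pgam2 rose by 1.19, Eno3 by 0.75, Pfkm by 0.65 and Hk1 by 0.51. Eno1 fell from 762 to 578 CPM (log2 fold change -0.40).

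Promoter sequence was compared for the 31 members with an entry, in 39 windows. The median GC content was 61.3%, against 52.7% over all 32851 windows of mouse genes, and the median number of CpG dinucleotides was 21 against 7. On both strands, the ERR motif TNAAGGTCA was in 1 member window (Sdhd) and 1.28% of all windows, and the NRF1 core GCATGCGC in 3 windows of 2 members (Ogdh and Sdhb) and 2.71% of all. The ETS motif CCGGAAGT was in 1 window (Dlst), with 3.89% of all, the YY1 motif AAGATGGCG in 1 (Idh3g), with 1.40%, and the E-box CACGTG in 6 windows of 4 members (Ogdh, Pdp2, Pcx and Slc25a13), with 7.15%. These are letter matches in fixed windows set by RefSeq starts. The Ogdh windows chr11:6292308-6292607 and chr11:6292329-6292628 overlap and hold the same NRF1 and E-box match, so window counts exceed the number of sites. In 28 of the 39 windows the bases just after the start lie in a GENCODE M21 transcript of the gene, and the RefSeq start of Sdhd lies outside the GENCODE gene, which on the minus strand begins at chr9:50603812, so positions relative to the start hold for RefSeq alone.

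Counts of some members are uncertain because other loci share their sequence or overlap them. Stretches at or above 95% identity over at least 150 bases tie Got2 to the pseudogene Got2-ps1 (99.1% over 1293 bases), whose level went from 25.2 to 37.4 CPM, and Mpc1 to Mpc1-ps (100% over 261 bases), which held 14755 counts against 9973 for Mpc1 over the 9 libraries and went from 75.5 to 104 CPM. Pdhb, Suclg2 and Slc25a12 also have such matches, to Gm6123, Gm15163 and Adpgk. Exons of 6 members overlap a gene on the opposite strand: Idh3b with Nop56, Mdh1 with Wdpcp, Pdha1 with Map3k15, Mpc1 with 4930506C21Rik, Got2 with Gm45760 and Slc25a11 with Rnf167. The sources used here do not say whether the counting used strand. Of these partners, Wdpcp (5.04 CPM in the negative control) and Rnf167 (16.2 CPM) rose by 0.47 and 0.38 on the log2 scale, and Nop56 (85.6 CPM) fell by 0.20. Map3k15 had a log2 fold change of -0.32 and Gm45760 of 0.19, neither past the test, and 4930506C21Rik was not tested.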

How the data were processed

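RNA was measured in 9 libraries of isolated mouse cardiomyocytes, 3 per group. Per the labels' protocols, total RNA was extracted with TRIzol, ribosomal RNA was depleted and a directional kit was used before 150-bp paired-end sequencing on a NovaSeq instrument, whereas the molecule field reads polyA RNA. The authors deposited raw counts per Ensembl gene. FastQC, Trimmomatic, STAR, featureCounts and the mm10 build are named per the submitters' processing notes, without versions in the sources used here. The 5 lines of the table that name no gene held 16.3% to 17.4% of the counts and were left out of totals and fits.

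Of 55487 identifiers, 55227 matched GENCODE M21. Counts were fitted with edgeR 4.0.16 in R 4.3.3 (quasi-likelihood F test, TMM, filterByExpr with minimum count 10 and minimum total 15, no covariates, 6 residual degrees of freedom), all 9 libraries in a single fit, with Benjamini-Hochberg adjustment over the 15633 genes tested and a threshold of 0.05. The fit was tested on simulated data. Standard errors (SE) were taken as the absolute log2 fold change divided by the square root of the quasi-likelihood F statistic. RPKM values divide CPM by the union of a gene's exons, and ratios use CPM + 0.5. Copies were searched with blastn 2.17.0. Promoter windows are RefSeq's, on GRCm38.p6, and 31 of 34 members matched an entry; Sdhc, Pdp1 and Idh3a did not.

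The titles call the libraries biological replicates without naming animals or cultures, and p-values here therefore reflect the spread among these 9 libraries, possibly technical. Replicates differed by more than sampling noise (chi-square per degree of freedom 3.27 to 7.39). No batch is named, so batch and group cannot be told apart. Alternatives were other scalings, no low-count filter, DESeq2 1.42.0, limma 3.58.1 with voom, a replicate block, fits of only the groups compared or without mitochondrially encoded genes, other pseudocounts and leaving out each library. The members and gene lists were chosen with earlier results of these data known. The named genes are all 34 members, Firre, the 4 pyruvate dehydrogenase kinases and, from each other list, up to 4 genes with the smallest p for Firre against the negative control. Further genes of these lists are named where they fell, were not called, had low counts or bear on a sum. Aldoa and Nnt each matched 2 identifiers and were left out. Some genes that this rule names are not reported here.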

Additional observations from a re-analysis of the deposited data

How the results depend on the processing

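The counts of member calls were stable. Against the negative control 29 to 31 genes rose and 1 fell under every alternative, including fits without each library, and against the blank control 30 to 31 rose and 1 fell; 0 members were called between the controls throughout. With library totals alone, 29 rose against the negative control. Of the single-gene values against the negative control, 601 kept their direction and side of the threshold, 10 lost the call (Pdp1, Pdp2 and Slc25a13) and 1 gained it (Pcx); against the blank control these numbers were 606, 5 and 1, with Pdp2 and Slc25a13 losing and Pcx gaining a call. The log2 difference of Pdp1/Pdp2 changed sign, and ran from -0.19 to 0.10 over the fits without 1 library each (0.0955 without Firre replicate 2 and 0.0647 without negative control replicate 1); the cause was not tested. Same-numbered libraries did not deviate together (correlation -0.0399 to 0.0283). These correlations over all genes tested gave no sign of pairing by number, but 3 libraries a group cannot exclude it. With the replicate block 8592 genes were called in place of 8747, and 31 members rose and 1 fell. With all 6 controls, 6 ratios passed the threshold that 3 against 3 cannot reach. Precision was lowest for Pdp1 and Pdp2, the members with the fewest counts and the largest standard errors.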
